A study of Mus musculus with 8 samples.

Results

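mmu-miR-211-5p and mmu-miR-598-3p are 2 mature microRNAs (miRNAs) that are cut from introns of mouse genes. They are 2 of the 1978 mature names in the deposited table, and they were chosen because they moved in opposite directions between the MP and TN subsets of CD8+ T cells. miR-211-5p was lower in MP than in TN, while miR-598-3p was found at low level in MP and was nearly absent from TN. That subset difference is therefore a description here and carries no test. The genotype comparisons, which the choice did not use, are tested.

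The 8 small RNA libraries come from CD8+ T cells of mouse spleen and fall into 4 groups of 2: mCre MP, WT MP, mCre TN and WT TN. The genotype is mCre or WT, and the series title ties the mCre mice to miR-29 and to Cre, a recombinase that removes marked DNA. The labels name neither the promoter that drives Cre nor the deleted sequence, and they give no strain. MP and TN are subsets of CD8+ cells sorted with antibodies to CD44 and CD122, surface proteins that are high on memory-phenotype cells. TN is usually read as true naive. The design text writes VM, usually read as virtual memory, where the titles write MP, and the labels spell out neither. Spleens of adult or neonatal mice are named in the protocol without saying which sample had which age. Whether the replicates are separate mice is not stated either, and the p-values below measure only how these libraries differ, which may be technical.

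The libraries held 2140365 and 3061363 counts in mCre MP, 3295379 and 3920356 in WT MP, 5230975 and 2921824 in mCre TN, and 3024878 and 1936597 in WT TN. miR-29a-3p, the main form of the miRNA in the series title, took 0.0734% and 0.126% of the counts in mCre MP, against 0.349% and 1.09% in WT MP. In TN it took 0.162% and 1.52% in mCre, against 0.340% and 0.0735% in WT, so the replicate 2 libraries ran against their labels. Fitted values of the members that use TN are given with and without those libraries. All 7 lymphocyte miRNAs looked up, such as miR-150-5p and miR-142a-3p, were detected, with a summed level of 54540 to 124900 RPM in MP and 49850 to 183500 RPM in TN (RPM, counts per 1000000 counts of the library). Myeloid miRNAs summed to at most 13.7 RPM in MP and 10.3 in TN, and erythroid miRNAs to at most 10.0 and 5.62. Endothelial and stromal miRNAs summed to 34.1 to 109.2 in MP and 22.2 to 59.3 in TN.

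An intronic miRNA starts as a hairpin within the intron of a longer host transcript. The enzyme Drosha cuts the hairpin out, Dicer removes its loop, and 1 of the 2 arms is usually kept in an Argonaute protein, which it guides to messenger RNAs that pair with its seed, bases 2 to 8. miR-211 lies in Trpm1, a cation channel gene of pigment cells and of the retina, and is best known from melanocytes, where the transcription factor MITF drives the host gene. miR-598 lies in Xkr6, which belongs to the XK-related family of membrane proteins.

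The mature sequences below show why miR-211-5p has to be read together with a relative. They are from RefSeq (GRCm38.p6), which held a sequence for 1 of the 2 miRNAs, miR-211-5p; capitals mark the seed.
miR-211-5p: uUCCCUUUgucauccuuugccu
miR-204-5p: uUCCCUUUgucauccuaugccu
miR-7670-3p: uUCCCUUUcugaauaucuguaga
miR-211-3p: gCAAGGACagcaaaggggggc
miR-211-5p and miR-204-5p are identical at 21 of 22 positions, and their single difference is U17A, counted from the 5′ end with the base of miR-211-5p first. Of the 1679 mature names in the sequence table, 3 carry this seed, and miR-7670-3p is the third. miR-211-3p is the other arm of the miR-211 hairpin and has another seed. In the hairpin itself, which is shown to place the arms, the capitals mark miR-211-5p on the left and miR-211-3p on the right.
Mir211: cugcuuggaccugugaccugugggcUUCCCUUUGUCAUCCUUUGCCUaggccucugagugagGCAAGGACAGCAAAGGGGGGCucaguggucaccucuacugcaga

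Mir211 lies on chromosome 7 at 64205806 to 64205911, plus strand (GRCm38, mm10). In GENCODE it falls in intron 6, of 3682 bases, of the Trpm1 transcript with the most exons, 27, on the same strand. Mir598 lies on chromosome 14 at 63727189 to 63727267, plus strand, in intron 1 of Xkr6, which spans 190922 bases and has the same strand. Mir204 lies on chromosome 19 at 22750605 to 22750672, in intron 6 of a 27-exon transcript of Trpm3, a gene of the same channel family as Trpm1. In these transcripts, miR-211 and miR-204 thus sit in the intron of the same number in related genes. The locus of miR-7670-3p, the third name with this seed, was not looked at in this way. Small RNA libraries do not measure the host messenger RNAs, so the levels of Trpm1 and Xkr6 were not analysed here.

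mmu-miR-211-5p had 131 and 324 counts in mCre MP and 364 and 447 in WT MP. In TN it had 2833 and 1229 counts in mCre and 1426 and 1526 in WT. Scaled by library size and TMM factors to CPM (counts per 1000000, with TMM scaling, which levels libraries of differing composition), it was at 69.4 and 126.2 CPM in mCre MP and 98.4 and 121.8 in WT MP, against 470.6 and 426.0 in mCre TN and 381.8 and 859.5 in WT TN. All 4 MP libraries lay below all 4 TN libraries, and the lowest TN value was 3.03 times the highest MP value. Over the genotypes it averaged 103.9 ± 26.1 CPM in MP against 534.5 ± 219.7 CPM in TN (SD, 4 libraries each), and the fitted log2 fold change of MP over TN was -2.35 ± 0.43 (SE), or -2.16 without both TN replicate 2 libraries. By rank among the names of a library, miR-211-5p stood between 114 and 132 in MP and between 57 and 92 in TN.

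mmu-miR-598-3p had 25 and 18 counts in mCre MP and 48 and 67 in WT MP. In TN it had 3 and 1 counts in mCre and 0 in both WT libraries. This corresponds to 13.2 and 7.01 CPM in mCre MP and 13.0 and 18.3 in WT MP, against 0.498 and 0.347 in mCre TN. All 4 MP libraries lay above all 4 TN libraries, and the lowest MP value was 14.1 times the highest TN value. At the pooled rate of the MP libraries, the TN libraries would have held 66.6 and 37.2 counts in mCre and 38.5 and 24.6 in WT. A count of 0 allows up to 3 counts, which is 0.992 RPM in WT TN replicate 1 and 1.55 in replicate 2.

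Because TN holds few reads of miR-598-3p, the size of its difference is loosely fixed. Over all libraries there were 158 counts in MP and 4 in TN, 41.7 times as many relative to the summed miRNA counts (exact 95% interval 16.0 to 155.0). Within mCre there were 43 counts in MP and 4 in TN, a ratio of 16.8 (exact 95% interval 6.12 to 64.6). Within WT there were 115 counts in MP and 0 in TN, and the mean CPM was at least 12.5-fold higher in MP with the floor of 3 counts taken per library. The ratios of counts are unscaled, while the bound in WT uses TMM-scaled CPM. All intervals of counts and floors here cover counting error only. The fitted log2 fold change of MP over TN, 5.54 ± 0.95 (SE), became 3.96 with a prior count of 2 and 5.10 without both TN replicate 2 libraries.

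**Figure D1:**
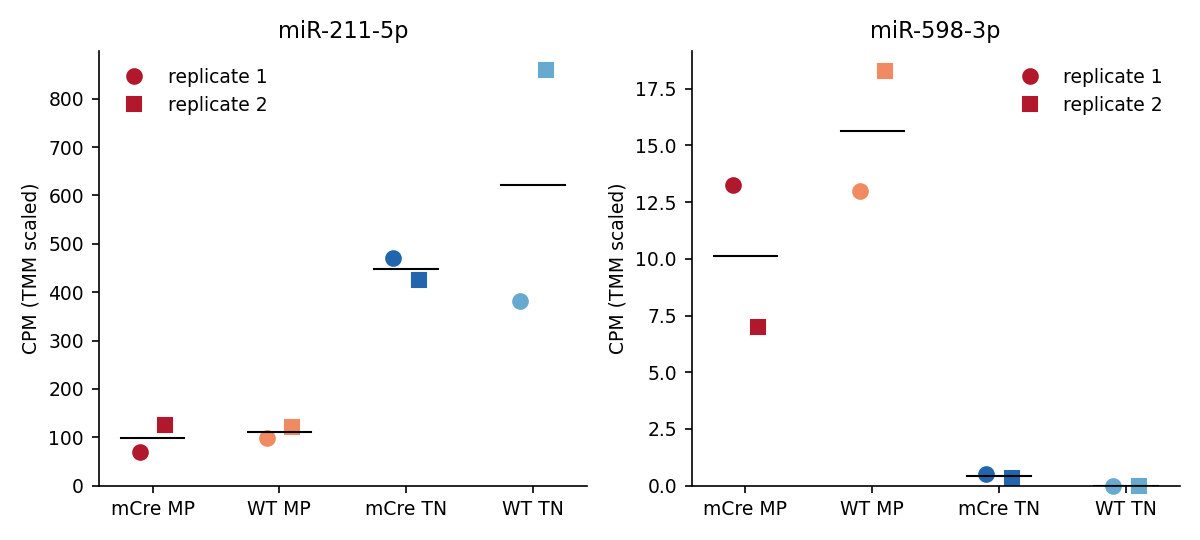
Level of miR-211-5p (left) and miR-598-3p (right) in each library, as CPM after TMM scaling, with circles for replicate 1, squares for replicate 2 and bars for the mean of 2 libraries. miR-211-5p lies between 69.4 and 126.2 CPM in MP and between 381.8 and 859.5 in TN, while miR-598-3p lies between 7.01 and 18.3 CPM in MP and at or below 0.498 in TN.

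The order of the 4 groups was not the same for both miRNAs. For miR-211-5p, lowest first, the means were 97.8 ± 40.2 CPM in mCre MP, 110.1 ± 16.6 in WT MP, 448.3 ± 31.6 in mCre TN and 620.7 ± 337.8 in WT TN (SD, n = 2 each). The mCre and WT values overlapped within each subset: the MP means differed by less than either SD, and the TN means by less than the SD of WT TN but by more than that of mCre TN. The step between WT MP and mCre TN was larger than the SD of either group. For miR-598-3p the means were 10.1 ± 4.40 CPM in mCre MP, 15.6 ± 3.74 in WT MP, 0.422 ± 0.107 in mCre TN and 0 in WT TN (SD, n = 2 each). WT MP was thus highest, and both TN groups were at or under the floor of 3 counts, so they are not ordered. The values of mCre MP and WT MP overlapped on this scale.

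Both miRNAs were among the 382 that passed the filter on low counts, miR-598-3p through its MP libraries. In the fit across all of these for MP against TN over both genotypes, edgeR's quasi-likelihood test called 9 miRNAs (2.36%) at an adjusted p under 0.05, 5 higher (1.31%) and 4 lower (1.05%) in MP, both members included. Leaving out 1 library moved this number to between 0 and 41. Without overlap between the subsets, 6.81% of the 382 were higher in MP, as miR-598-3p was, and 4.45% lower, as miR-211-5p was. The members were chosen on this contrast, so nothing is read from these counts. By fitted change on this same contrast, miR-598-3p stood highest of the 382 and miR-211-5p at 16 from the other end, as a description only. The value of miR-598-3p rests on 4 counts in TN and fell from 5.54 to 3.96 with a prior count of 2. Ranks were not taken with that prior count. In a sorted population, fewer cells that hold a miRNA and less of it per cell cannot be told apart.

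**Figure D2:**
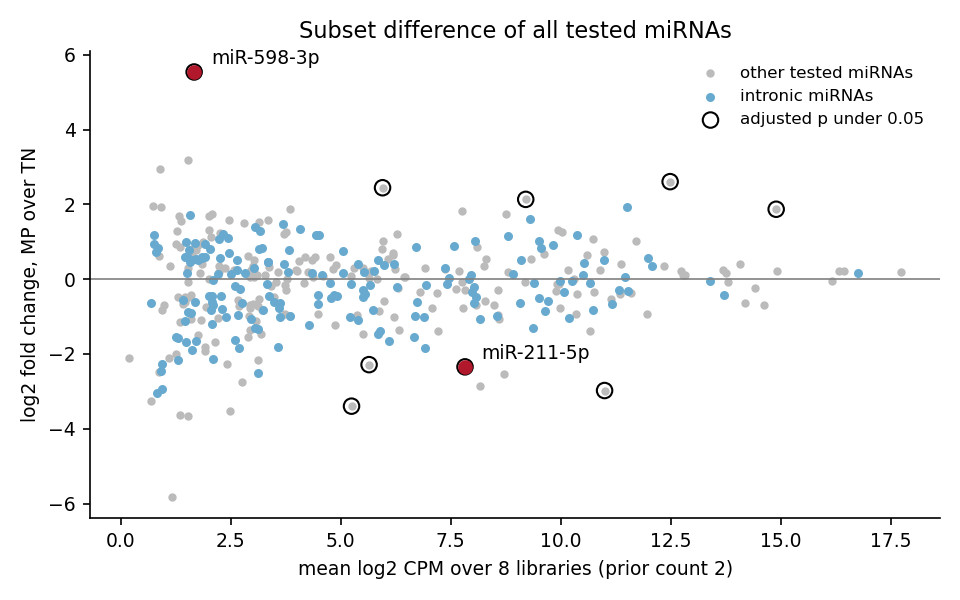
Fitted log2 fold change of MP over TN against mean log2 CPM for the 382 tested miRNAs, with intronic miRNAs in blue, the others in grey, the 2 members in red and a ring around each miRNA with an adjusted p under 0.05. miR-598-3p stands at 5.54 among scarce miRNAs and miR-211-5p at -2.35 among miRNAs of middle abundance.

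The relatives of miR-211-5p add little to its seed. miR-204-5p had deposited values of 2 and 0.5 in mCre MP and 0.5 and 2 in WT MP, against 25 and 3 in mCre TN and 20 and 4.5 in WT TN. The deposited values of all MP libraries were below those of all TN libraries; after scaling, mCre MP replicate 1 (1.06 CPM) and mCre TN replicate 2 (1.04 CPM) overlapped. In rounded counts miR-211-5p made up 99.3% of the 2 names, and miR-7670-3p had 12 counts over all libraries. miR-211-5p and miR-204-5p each held a fraction of 0.5 in the same 3 libraries, and their sum was whole in all 3. Reads that fit both rows thus appear to have been split between them. If they were split equally, a fraction of 0.5 shows only that an odd number was shared, and whole values can hide an even number. The number of shared reads is therefore not known. miR-598-3p held whole numbers in all 8 libraries.

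The arms of each hairpin were unequal. miR-211-3p had 11 and 9 counts in mCre MP and 4 and 6 in WT MP, against 36 and 6 in mCre TN and 12 and 26 in WT TN. The subsets overlapped, unlike for the 5p arm: in WT there were 10 counts in MP and 38 in TN, a ratio of 0.181 (exact 95% interval 0.0804 to 0.370), while in mCre there were 20 in MP and 42 in TN, a ratio of 0.746 (0.415 to 1.30). The 3p arm took 7.75% and 2.70% of the hairpin's counts in mCre MP and 1.09% and 1.32% in WT MP, against 1.25% and 0.486% in mCre TN and 0.834% and 1.68% in WT TN. The value of 7.75% rests on 11 counts and has an exact interval of 3.93% to 13.4%. Over both subsets the share averaged 3.05% ± 3.26 in mCre and 1.23% ± 0.358 in WT (SD, n = 4 each), a difference within the spread (two-sided exact permutation test, p = 0.371). The smallest p this test allows is 0.0286. It exchanged libraries across the subsets, so it does not judge genotype within a subset. In MP both mCre shares lay above both WT shares, while in TN the shares overlapped. Such a separation is common with 2 libraries each: 37.4% of the 382 tested miRNAs were lower in mCre MP without overlap after TMM scaling. The arm shares of other hairpins were not computed. The unscaled ratio of miR-211-3p, mCre over WT in MP, was 2.77 (exact 95% interval 1.24 to 6.64), with an edgeR adjusted p of 0.465. miR-598-5p, the other arm of the miR-598 hairpin, had 0 counts in all 8 libraries, which at 3 counts allows from 0.574 to 1.55 RPM.

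**Figure D3:**
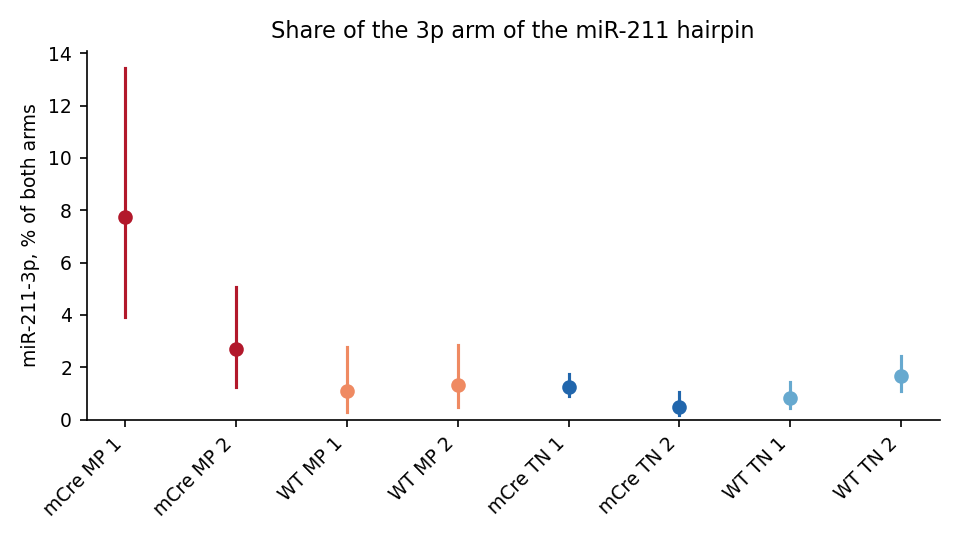
Share of miR-211-3p among the counts of both arms of the miR-211 hairpin, in percent, for each library, with exact 95% intervals for counting error. The share is 7.75% in mCre MP replicate 1 and between 0.486% and 2.70% in the other libraries.

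The mCre genotype was compared with WT to see whether the miRNAs also differ with genotype. In MP, miR-211-5p was at 97.8 ± 40.2 CPM in mCre and 110.1 ± 16.6 in WT (SD, n = 2 each), a log2 fold change of -0.17 with a 95% interval of -1.51 to 1.17 (edgeR adjusted p = 0.906). miR-598-3p was at 10.1 ± 4.40 CPM in mCre and 15.6 ± 3.74 in WT (SD, n = 2 each), a log2 fold change of -0.63 with an interval of -2.52 to 1.26 (edgeR adjusted p = 0.737). Counting error alone gives a narrower picture of miR-598-3p, with 43 counts in mCre MP, 115 in WT MP and an unscaled ratio of 0.519 (exact 95% interval 0.357 to 0.742). Before TMM scaling it was at 11.7 and 5.88 RPM in mCre MP, below the 14.6 and 17.1 in WT MP, and miR-211-5p was at 61.2 and 105.8 in mCre MP, below the 110.5 and 114.0 in WT MP. Both were thus lower in mCre without overlap on that scale, as were 48.4% of the miRNAs tested. After TMM scaling both overlapped, and 37.4% of the miRNAs tested were lower without overlap.

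In TN, miR-211-5p was at 448.3 ± 31.6 CPM in mCre and 620.7 ± 337.8 in WT (SD, n = 2 each). Both mCre values lay between the WT values, and the log2 fold change was -0.47, with an interval of -1.81 to 0.87 (edgeR adjusted p = 0.957). The library labelled WT TN replicate 2 sets this sign: without it the value was 0.23, and without both TN replicate 2 libraries 0.29. miR-598-3p had 3 and 1 counts in mCre TN and 0 in both WT TN libraries, at or under the floor in all 4, so no fold is given (edgeR adjusted p = 0.957, or 0.994 without both TN replicate 2 libraries). By the bare values mCre was higher without overlap here, as for 15.7% of the miRNAs tested, but values at the floor give no order.

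Over both subsets, the log2 fold change of mCre over WT was -0.32 for miR-211-5p, with an interval of -1.25 to 0.61, and 0.17 for miR-598-3p, with an interval of -1.50 to 1.84 (edgeR adjusted p = 0.992 for both). Without both TN replicate 2 libraries these values were -0.020 for miR-211-5p and -0.29 for miR-598-3p, and without WT TN replicate 2 alone that of miR-211-5p was 0.022. The fitted sign of miR-598-3p goes against its means, which were 5.27 CPM in mCre and 7.81 in WT over both subsets, so no direction is read from it. It turned with a prior count of 2 (-0.12), and without WT TN replicate 1 (-0.25), WT TN replicate 2 (-0.13) or mCre TN replicate 1 (-0.14). The genotype effect in MP minus that in TN, which equals the subset difference in mCre minus that in WT, was 0.30 for miR-211-5p, with an interval of -1.60 to 2.19 (edgeR adjusted p = 0.905). Its sign turned without WT TN replicate 2 (-0.35), both TN replicate 2 libraries (-0.47) or mCre MP replicate 2 (-0.14). For miR-598-3p the same test gave an edgeR adjusted p of 0.350, or 0.706 without both TN replicate 2 libraries; its size is not given, since WT TN held 0 counts. All these intervals include 0, with lower limits of -2.52 to -1.25 and upper limits of 0.61 to 2.19 on the log2 scale, so the miRNAs are not shown to be alike in the 2 genotypes.

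**Figure D4:**
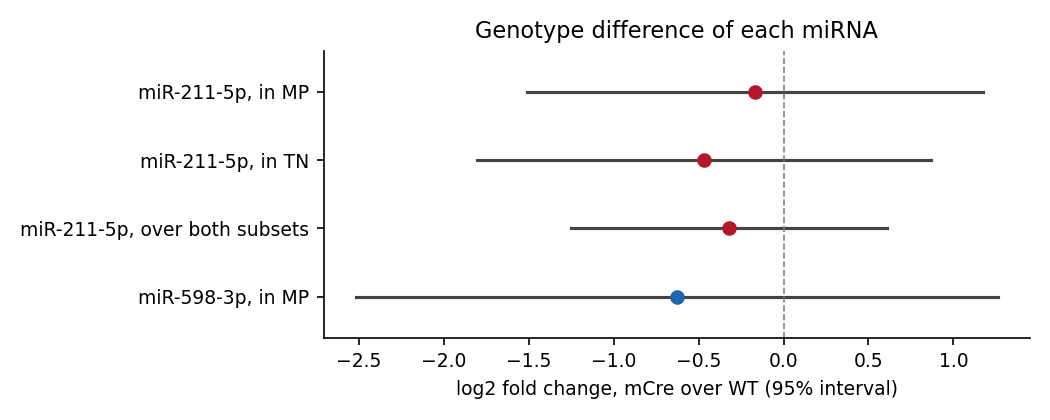
Log2 fold change of mCre over WT (points) with 95% intervals (lines) for miR-211-5p in MP, in TN and over both subsets, and for miR-598-3p in MP. All 4 intervals include 0, and the widest runs from -2.52 to 1.26; differences of miR-598-3p that rest on its few TN reads are not drawn.

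No miRNA passed these genotype tests, so the background share was 0.0% in each. In MP edgeR called 0 of 382 and DESeq2 0, while 41 had an unadjusted edgeR p under 0.05. In TN edgeR called 0, with 12 unadjusted, and DESeq2 0; over both subsets edgeR called 0, with 5 unadjusted, and DESeq2 0. For the difference of the genotype effects edgeR called 0, with 54 unadjusted, and DESeq2 called 16. Without both TN replicate 2 libraries edgeR called 63 miRNAs in MP, 0 in TN, 27 over both subsets and 0 for the difference, and neither member passed in any of them.

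The subset difference was also taken within each genotype. For miR-211-5p the log2 fold change of MP over TN was -2.20 in mCre and -2.49 in WT, and without both TN replicate 2 libraries it was -2.38 in mCre and -1.92 in WT. For miR-598-3p it was 4.41 in mCre and 4.07 without those libraries; in WT all its reads came from MP. In both genotypes each member separated MP from TN without overlap, as did 65.2% of the miRNAs tested in mCre and 39.5% in WT, counting both directions.

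Both members are intronic, so the other intronic miRNAs were looked at as a group. By GENCODE, 174 of the 377 tested miRNAs with a known position come only from hairpins inside introns of protein-coding genes on the same strand. They have 92 different hosts or host sets, and 34 of the 174 lie in Sfmbt2, a Polycomb group gene that carries a large rodent miRNA cluster. For MP against TN over both genotypes, 1 intronic miRNA passed as higher and 1 as lower. These are the members themselves, which were chosen on this contrast, so nothing is read from those calls. Among the other 172 intronic miRNAs edgeR called 0 and DESeq2 5 (2.91%), 1 higher and 4 lower, against 28 (7.33%) by DESeq2 over all 382. An unadjusted edgeR p under 0.05 was found for 17 of the 172 (9.88%), or 19 of the 174 with the members, against 50 of the 382 (13.1%). The 382 include the members and the 172, so these shares set a part beside the whole. The median log2 fold change was -0.14 over the 174 and -0.04 over all 382. For mCre against WT it was -0.20 in MP and -0.01 in TN over the 174, against -0.23 in MP and 0.02 in TN over all 382. Trpm1 also holds Mir6416, on the other strand, and both of its arms had 0 counts in all libraries.

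Markers of the tissues in which the members are usually studied were read beside them. Of the pigment cell and eye list, miR-204-3p was at 0 in every library, and miR-204-5p, miR-204-3p and miR-184-3p together summed to 0.934 to 4.34 RPM in MP and 4.65 to 9.59 in TN. Every MP library was thus below every TN library in this sum, but only just, at 4.34 RPM or less against 4.65 or more. That gap is smaller than the floor of 3 counts in any library, 0.574 to 1.55 RPM, so no separation is read from it. Taken singly after TMM scaling, 4.45% of the 382 tested miRNAs were lower in MP without overlap. miR-184-3p alone did not separate the subsets, at 0 to 3.83 RPM in MP and 2.10 to 5.82 in TN. miR-204-5p, which appears to share reads with miR-211-5p, was at 0 to 0.934 in MP and 1.03 to 6.61 in TN. The part of this sum in the result was not tested. Of the neural list, miR-129-5p and miR-137-3p were at 0 throughout. miR-128-3p, which lymphocytes also express, was at 2658 to 4271 RPM in MP and 139.6 to 7779 in TN, with the lowest value in the library labelled mCre TN replicate 2. The 7 other neural miRNAs summed to 0 to 5.87 RPM in MP and 2.98 to 5.82 in TN.

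The miRNAs closest to each member were found by the root mean square difference of their log2 CPM profiles over the 8 libraries, each centred on its own mean. For miR-211-5p the closest were miR-99b-5p (0.50), miR-1198-3p (0.56), miR-125a-5p (0.58), miR-450b-5p (0.58) and miR-181a-2-3p (0.62), against a median of 1.52 over all tested. miR-99b and miR-125a come from the same cluster, and none of the 5 has the seed of miR-211-5p. miR-1198-3p and miR-450b-5p averaged under 3 CPM in both subsets, so their profiles rest on few counts. The seed relative miR-204-5p stood at rank 20 of 381 (0.93) and the other arm, miR-211-3p, at rank 36 (1.08). These ranks rest on few counts too, since miR-204-5p averaged 0.401 CPM in MP and 3.20 in TN, and miR-211-3p 3.01 and 6.48.

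For miR-598-3p the distances ran larger, with a median of 2.17 over all tested against 1.52 for miR-211-5p. Closeness is therefore not compared between the members, and the TN part of this profile rests on at most 3 counts per library. The closest were miR-146a-5p (0.81), which restrains NF-kB signalling in lymphocytes, then miR-30a-3p (1.04) and the minor arm miR-30c-2-3p (1.10). After these came miR-29c-5p (1.15) and miR-21a-5p (1.20), a miRNA induced in activated T cells. 4 of these 5 are themselves among the 9 called for MP against TN, the exception being miR-29c-5p. That miRNA averaged 0.718 CPM in TN, so its profile there rests on few counts. The other member, miR-211-5p, lay at 3.24. The members were chosen for a subset difference, which their profiles carry, so these distances are a description.

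**Figure D5:**
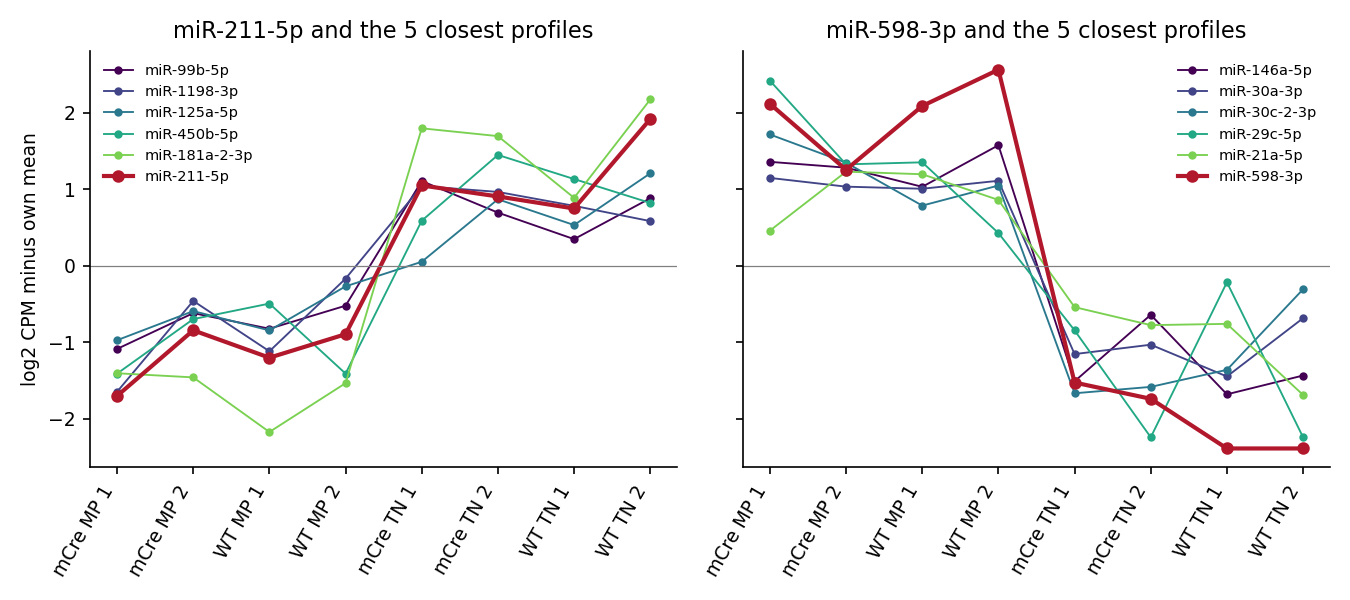
Log2 CPM of each member (thick red line) and its 5 closest miRNAs (thin lines) in each library, minus the miRNA's own mean over the 8 libraries; numbers after the group are replicates, and the lines join libraries for reading only. miR-211-5p and its closest profiles lie below 0 in the 4 MP libraries and above 0 in the 4 TN libraries, and miR-598-3p and its closest profiles do the opposite.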

How the data were processed

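Small RNA was sequenced from sorted splenic CD8+ T cells in 8 libraries of 4 groups. The authors deposited 1 table of expected counts, 2128 rows for 1978 mature names; mm10 is the build per the submitters' processing notes, and neither aligner nor counter is named in the sources used here. Columns were matched to titles. Rows of a name were summed and rounded, with values ending in 0.5 going to the even number. Totals ran from 1936597 to 5230975. filterByExpr (edgeR 4.0.16, R 4.3.3; minimum count 10, minimum total 15) kept 382 names. TMM scaled the libraries. edgeR's quasi-likelihood test, robust, with Benjamini-Hochberg adjustment over the 382, used a 4-group fit (4 residual degrees of freedom) and an additive fit of subset and genotype (5). DESeq2 1.42.0 was an alternative. Log2 CPM profiles used a prior count of 2. Intervals of shares and ratios are exact (Clopper-Pearson, 95%); those of log2 fold changes use the t distribution with edgeR's degrees of freedom. The fits were tested on simulated data. Positions came from GENCODE M21 and RefSeq. The members, lists and naming rule (members, other arms, seed relatives, miRNAs of the same host, the 5 closest profiles, and called intronic miRNAs) were chosen with earlier results of these data known.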

Additional observations from a re-analysis of the deposited data

How the results depend on the processing

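Neither member passed a genotype test in any of 126 combinations of result and alternative, and none of the 80 subset values of the members changed sign; the cause of the moves below was not tested. Without both TN replicate 2 libraries, edgeR called 49 miRNAs for MP against TN over both genotypes, 30 in mCre and 14 in WT, and for genotype 63 in MP and 27 over both subsets. There miR-211-5p changed by 0.29 (mCre against WT in TN), -0.47 (difference of genotype effects) and -1.92 (MP against TN in WT), and miR-598-3p by 5.10 (MP against TN) and -0.29 (genotype over both subsets), all on the log2 scale. With a prior count of 2, miR-598-3p changed by 3.96 for MP against TN, by 3.35 within mCre and by -0.12 with genotype over both subsets. Total count scaling turned the difference of genotype effects of miR-211-5p to -0.037.

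DESeq2 called 16 miRNAs for the difference of genotype effects, 28 for MP against TN, 44 in mCre and 12 in WT. Without the filter on low counts edgeR called 10, 19, 24 and 6 for the same 4 comparisons, and 1 for mCre against WT in TN. With the replicate block, edgeR called 2 miRNAs for MP against TN; the deviations of same-numbered libraries correlated between -0.32 and 0.41, so the numbers were not taken to pair the libraries.

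Leaving out libraries, here and above, left single samples in a group, which were assumed to vary like the others. The calls for MP against TN fell to 0 without either WT MP library or mCre MP replicate 2, numbered 1 without the replicate 1 library of mCre TN or of WT TN, and 2 without mCre TN replicate 2 or replicate 1 of mCre MP. They rose to 41 without WT TN replicate 2. They ran from 0 to 56 in mCre, from 0 to 6 in WT and from 0 to 68 for the difference of genotype effects, each highest without WT TN replicate 1. On the log2 scale miR-211-5p ran from -2.79 to -1.79 for MP against TN in mCre and from -2.94 to -1.89 in WT. For mCre against WT it ran from -0.68 to 0.26 in MP, from -0.90 to 0.23 in TN and from -0.59 to 0.022 over both subsets, and for the difference of genotype effects from -0.35 to 0.93. miR-598-3p ran from 4.95 to 6.29 for MP against TN, from 3.92 to 4.70 in mCre, and from -0.25 to 0.81 for mCre against WT over both subsets. At most 3 counts of miR-598-3p were seen in a TN library, so the size of its subset difference is loosely fixed.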
